A study of Homo sapiens with 12 samples.

Results

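The gene expression of FBXO11 knockout cells was compared between Raji and Daudi, 2 established human cell lines of Burkitt lymphoma, the B cell cancer in which MYC is moved next to an immunoglobulin gene. The comparison holds 6 of the 12 libraries of the study, 4 of Raji knockout and 2 of Daudi knockout, and all 12027 genes that passed the filter on low counts out of 19919 in the table. The other 6 libraries, 4 of wild-type Raji and 2 of wild-type Daudi, serve as the background of each line. The knockout cells had been transduced with a lentivirus carrying Cas9 and a guide RNA, selected with puromycin and grown from single cells. Clones were chosen by western blot and by sequencing of the target. All cells were grown in RPMI 1640 medium with serum. The sources used here do not say whether the wild-type cells were transduced, selected or cloned, which guide or clone each knockout library holds, or whether libraries of a group are separate cultures. A p-value below thus reflects only how far these libraries vary, and that variation may be technical. Differences between the knockout groups hold the difference between the lines, any effect of cloning and any effect of losing FBXO11, which the knockout libraries alone do not separate.

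FBXO11 is an F-box protein, the subunit of an SCF (SKP1-CUL1-F-box) ubiquitin ligase that picks the proteins to be marked for degradation. BCL6, a transcriptional repressor that keeps B cells in the germinal centre state, is its best known target in B cell lymphoma. Both lines carry the Epstein-Barr virus (EBV), and the virus in Daudi lacks the gene for EBNA2, a viral protein that switches on host genes. Daudi is also known as a line that makes no functional beta-2 microglobulin, the light chain of MHC class I.

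The guides are shown because they mark the edited site in FBXO11. They match exon 4 of transcript FBXO11-201 (GRCh38), on its own strand, in lower case, with the 3 bases that follow each match in capitals.
Guide 1, chr2:47838980-47838998: cctgctgaacagtatcttcAGG
Guide 2, chr2:47838926-47838945: cttctcttacttgctggaacAGG
FBXO11 (ENSG00000138081, chromosome 2, 47789316 to 47905793, minus strand) was measured at 72.1, 70.6, 34.1 and 47.9 CPM in Raji knockout and 88.4 and 92.8 CPM in Daudi knockout, where CPM are counts per TMM-scaled library size, on the usual CPM scale. All 4 Raji libraries lay below both Daudi libraries, and Raji replicates 3 and 4 were the lowest. The difference did not pass the test (log2 difference -0.69, SE 0.30, adjusted p = 0.0844). An exact two-sided permutation test of 4 against 2 libraries gave p = 0.133. This test doubles the smaller tail of its 15 splits, so 0.133 is the smallest p it can give. With upper quartile scaling the log2 difference was -0.80 (adjusted p = 0.0436), and without Raji knockout replicates 1 and 2 it was -1.14 (adjusted p = 0.0128). Without Raji knockout replicates 3 and 4 it was -0.33 (adjusted p = 0.361). The library kit does not keep the strand of the RNA, and 26.9% of the exonic bases of FBXO11 overlap genes of the other strand, MSH6 among them. A gene-level count cannot see the edit in exon 4, so these levels do not check the knockout labels.

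BCL6 (ENSG00000113916, chromosome 3, 187721377 to 187745727) stood at 191, 295, 239.6 and 238 CPM in Raji knockout and 278 and 281 CPM in Daudi knockout. The lowest Raji library was at 191 CPM and the highest at 295 CPM, so the groups overlapped. The difference did not pass the test (log2 difference -0.22, SE 0.20, adjusted p = 0.415), with a 95% interval from -0.66 to 0.22 and an exact permutation p of 0.4. In wild type, BCL6 was higher in Raji, at 302, 426, 454 and 442 CPM against 157 and 195 CPM in Daudi (log2 difference 1.21, adjusted p = 0.000772). The difference of these differences, knockout minus wild type, -1.42 (SE 0.29), passed narrowly (adjusted p = 0.0483) and missed the threshold in 13 of the other settings tried. Among the ligase subunits and reported targets on the list of SCF genes, 3 of 15 were higher in Raji knockout and 2 in Daudi knockout. CUL1, the scaffold of the ligase, was lower in Raji knockout (log2 difference -0.52, SE 0.17, adjusted p = 0.0277), and SKP1, its adaptor, was higher (log2 difference 0.53, SE 0.18, adjusted p = 0.0339). Without Daudi knockout replicate 2 each count was 1. The CUL1 call was lost without Raji knockout replicate 3 or 4 and when either Daudi knockout replicate was left out. CUL1 lies on chromosome 7, whose genes as a group were low in Raji knockout replicates 3 and 4 (values below), and the part of that shift in the CUL1 difference was not tested.

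**Figure D1:**
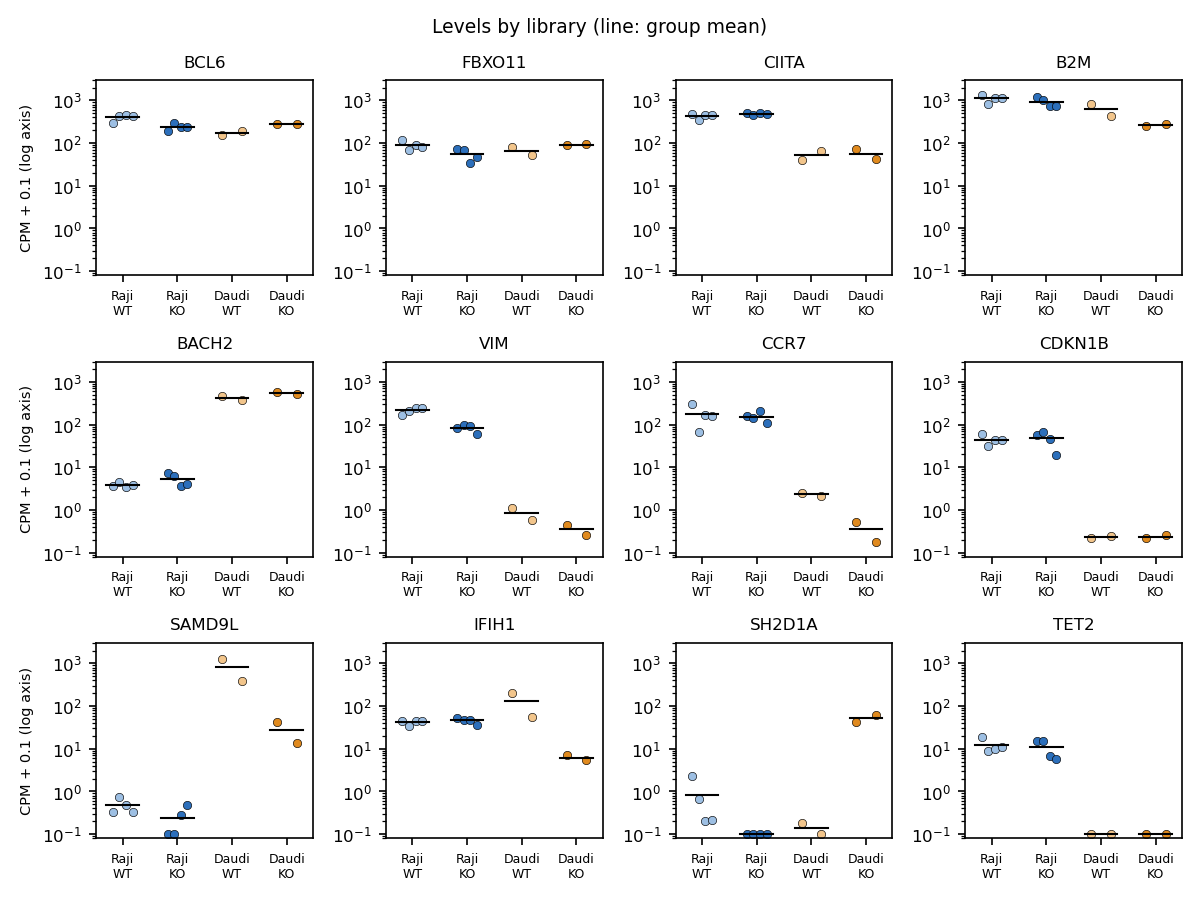
Levels of 12 genes in every library (vertical axes: CPM + 0.1 on a log scale; points: libraries; lines: group means; WT, wild type; KO, knockout). CIITA, B2M, VIM, CCR7, CDKN1B and TET2 are high in Raji knockout, BACH2, SAMD9L and SH2D1A in Daudi knockout, and BCL6 overlaps between the knockout groups.

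Total counts were 15.1M to 23.6M in the 4 Raji and 22.9M and 23.2M in the 2 Daudi knockout libraries, so that 3 counts, the floor used here, correspond to 0.13 to 0.2 CPM. Log2 CPM correlated at 0.956 to 0.985 within Raji knockout, at 0.977 between the Daudi libraries and at 0.748 to 0.774 across the lines. The first principal component of the 6 libraries, with 82.8% of the variance, parted the lines. The second, with 9.06%, set Raji replicates 1 and 2 apart from replicates 3 and 4. All 12 B cell markers on the list reached 1 CPM in every knockout library, and their sum was 3170 to 3860 CPM in Raji and 3260 to 3380 CPM in Daudi.

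Of the 12027 genes, 5076 (42.2%) differed between the knockout lines at an adjusted p under 0.05. In all, 2364 (19.7%) were higher in Raji knockout and 2712 (22.5%) in Daudi knockout. A difference of at least 2-fold was called for 3286 genes (27.3%), of which 1429 (11.9%) were higher in Raji and 1857 (15.4%) in Daudi. The widest class, 16-fold or more, held 396 genes higher in Raji and 757 higher in Daudi. The 4 Raji libraries and the 2 Daudi libraries did not overlap for 7125 genes (59.2%). The median log2 difference over all genes, written throughout as Raji knockout minus Daudi knockout, was -0.04 (-0.145 with upper quartile scaling). For 858 genes (7.13%) the 95% interval of the difference lay between -0.5 and 0.5. The most abundant of these were ribosomal protein genes: RPS2 (interval -0.44 to 0.44), RPSA (-0.40 to 0.45), RPL19 (-0.39 to 0.33), RPL15 (-0.46 to 0.43), RPS7 (-0.38 to 0.49) and RPS12 (-0.48 to 0.39). Ribosomal genes have near-identical pseudogenes, and the sources used here do not say how reads shared with such copies were counted.

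The largest differences were between a line with clear expression and a line with none. ALDH9A1, an aldehyde dehydrogenase of carnitine and aminoaldehyde metabolism (chromosome 1, 165662216 to 165698863), was at 61.5, 66.2, 79.2 and 75.7 CPM in Raji knockout and 0 CPM in both Daudi knockout libraries. With 5066 counts in the 4 Raji libraries and none in Daudi, its level in Raji was at least 1040-fold higher, with 3 counts over the group put in place of 0 (log2 difference 13.41, SE 0.49, adjusted p = 1.89e-08). The fitted log2 value of such a gene depends on the prior count and is not a bound. Further genes with 0 counts in both Daudi knockout libraries were ZNF711, a zinc finger transcription factor, at 48.2, 43.5, 31.1 and 29.5 CPM in Raji knockout and 0 CPM in both Daudi knockout libraries (at least 573-fold), and CTPS2, a CTP synthase, at 32.6, 30.5, 37.7 and 38.2 CPM in Raji knockout and 0 CPM in both Daudi knockout libraries (at least 517-fold). GYG1, the primer of glycogen synthesis, was at least 461-fold higher in Raji, YIPF6, a Golgi membrane protein, at least 463-fold, ABRACL at least 408-fold, GNG2, a G protein gamma subunit, at least 327-fold, and COL4A4, a basement membrane collagen chain, at least 330-fold. SDCBP, the scaffold protein syntenin, held 1 count in Daudi against 6327 in Raji, DEPDC1 held 1 against 4913, and CSNK1G3, a casein kinase, held 1 against 3974. GOLGA8B was at 358, 374, 201 and 299 CPM in Raji knockout and 0.276 and 0 CPM in Daudi knockout. It belongs to a family of near-identical copies, so its level is uncertain. In the wild-type libraries the same 12 genes followed the line, with 1.04 CPM of GOLGA8B as their highest level in wild-type Daudi.

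On the Daudi side, LY6E, a GPI-anchored interferon-induced surface protein, was at 0 CPM in all 4 Raji knockout libraries and 99.6 and 72.3 CPM in Daudi knockout. With 4365 counts against 0 it was at least 2360-fold higher in Daudi knockout (log2 difference -13.69, SE 0.42, adjusted p = 5.97e-08). GLUL, glutamine synthetase, was at 0 CPM in all 4 Raji knockout libraries and 57.3 and 56.7 CPM in Daudi knockout, at least 1560-fold higher (log2 difference -13.10, SE 0.58, adjusted p = 3.99e-07), and GLS2, a mitochondrial glutaminase, was at 0 CPM in all 4 Raji knockout libraries and 50.1 and 48.05 CPM in Daudi knockout, at least 1350-fold higher (log2 difference -12.89, SE 0.54, adjusted p = 2.99e-07). Both are enzymes of glutamine, made by GLUL and broken down by GLS2, and both were without counts in Raji knockout. Of the exonic bases of GLS2, 77.1% overlap a gene of the other strand, so some of its reads could come from there. Further genes at 0 in all 4 Raji libraries included FAM111B (at least 1820-fold), PODXL2 (at least 1700-fold), STOM, a membrane scaffold protein (at least 1580-fold), GTSF1, a germ line factor of the piRNA pathway (at least 1470-fold), EPB41L2, a membrane skeleton protein (at least 1330-fold), ABHD10 (at least 1270-fold), SLC7A3, a transporter of cationic amino acids (at least 1250-fold), and ZNF516 (at least 1120-fold). FAM111B, PODXL2 and SLC7A3 were also listed at 0 in all 4 wild-type Raji libraries, and wild-type Daudi expressed each of them, FAM111B for instance at 23.4 and 80.3 CPM. SH2D1A, which encodes the SAP adaptor of SLAM receptors, departed from this, since wild-type Daudi did not express it (values below).

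For 1 gene of each kind, GLUL without counts in Raji knockout and UCHL1 near 0 in Daudi knockout, the RefSeq promoter is shown, because both are CpG-rich although each was silent in 1 line. It is given as the 250 bases before the first listed start of transcription (GRCh38.p14, 5′ to 3′ on the gene's strand). Only the first listed start of each gene was used here and below. Both stretches lie inside the gene bounds of GENCODE, and other starts were not examined. CpG dinucleotides, searched as CG, which reads the same on both strands, are in capitals.
GLUL, chr1:182391791-182392040: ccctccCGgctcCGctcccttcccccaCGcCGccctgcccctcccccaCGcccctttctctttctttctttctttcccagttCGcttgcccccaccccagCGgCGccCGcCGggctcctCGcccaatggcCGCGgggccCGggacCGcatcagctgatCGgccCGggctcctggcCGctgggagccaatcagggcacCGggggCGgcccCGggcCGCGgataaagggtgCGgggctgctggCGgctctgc
UCHL1, chr4:41256678-41256927: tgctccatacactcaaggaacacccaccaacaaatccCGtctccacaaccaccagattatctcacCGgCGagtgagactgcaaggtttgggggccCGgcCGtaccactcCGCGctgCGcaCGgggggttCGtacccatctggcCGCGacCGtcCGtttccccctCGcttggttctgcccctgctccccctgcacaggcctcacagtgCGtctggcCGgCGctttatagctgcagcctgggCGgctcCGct
The GLUL stretch holds 25 CpG and the UCHL1 stretch 20. They do not stand for all genes far apart between the lines. The same stretch held 11 CpG in PHGDH, 8 in VIM, 6 in SNRPN and 9 in MEST. It held 21 in ALDH9A1, 27 in CDKN1B and 40 in BACH2. Over the 300 bases around the start that the table gives for each gene, 70.5% of 9699 tested genes with a promoter held 20 CpG or more. CpG content was not compared for the genes expressed in 1 line only, of which 79.7% (Raji) and 77.9% (Daudi) matched a promoter, below the share required here, against 80.6% of all tested genes. No methylation was measured, and a match is a description of letters.

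By a fixed rule, every library of one knockout line at 0.5 CPM or less and every library of the other at 5 CPM or more, 138 genes were expressed only in Raji knockout and 204 only in Daudi knockout. The count says nothing of the test, since the levels themselves chose these genes. Their median level was 23.5 CPM in Raji and 14.1 CPM in Daudi. The highest in Raji were GOLGA8B, PHGDH, UCHL1, PGGHG and CCR7. UCHL1, a neuronal ubiquitin hydrolase, was at 203, 213, 278 and 296 CPM in Raji knockout and 0.237 and 0 CPM in Daudi knockout. PHGDH, the first enzyme of serine synthesis, was at 354, 209, 295 and 171 CPM in Raji knockout and 0.355 and 0 CPM in Daudi knockout. PGGHG, a glucosidase of collagen sugars, was at 332, 229.5, 115 and 162 CPM in Raji knockout and 0.237 and 0.118 CPM in Daudi knockout. The highest in Daudi were CSTA, GNB4, SCRN1, LY6E and SPATA20. GNB4, a G protein beta subunit, was at 0.134, 0.0677, 0.307 and 0.107 CPM in Raji knockout and 98.02 and 131 CPM in Daudi knockout, and SCRN1, secernin, at 0.268, 0.0677, 0.123 and 0.160 CPM in Raji knockout and 94.9 and 118 CPM in Daudi knockout. SPATA20 was at 0, 0, 0.0614 and 0 CPM in Raji knockout and 71.01 and 97.7 CPM in Daudi knockout.

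Most of these genes also followed the line in wild type: 111 of the 138 and 140 of the 204 met the same rule there. Of the 64 Daudi genes that did not, 43 had a wild-type Daudi library under 5 CPM and 29 a wild-type Raji library over 0.5 CPM. Only 2 were at 0.5 CPM or less in both wild-type Daudi libraries, SH2D1A and ASZ1, a germ cell protein of the piRNA pathway, named after its values were seen. ASZ1 was at 0, 0.0677, 0 and 0 CPM in Raji knockout and 8.83 and 15.8 CPM in Daudi knockout, and at 0.0830 and 0.0494 CPM in wild-type Daudi, and its difference of differences was not called (adjusted p = 1.00), with no counts in wild-type Raji. In the other direction, UST, a sulfotransferase of dermatan sulfate, and ZXDB, a zinc finger protein, also named after their values were seen, were silent in Daudi knockout only. UST was at 47.4, 42.2, 24.2 and 13.9 CPM in Raji knockout and 0.315 and 0.0393 CPM in Daudi knockout, against 21.2 and 29.002 CPM in wild-type Daudi. ZXDB was at 9.36, 8.05, 7.86 and 6.62 CPM in Raji knockout and 0 CPM in both Daudi knockout libraries, against 9.12 and 5.14 CPM in wild-type Daudi. For both the knockout difference exceeded the wild-type difference, by a fitted log2 value of 6.27, SE 0.99, adjusted p = 0.0169 for UST and of 9.91, SE 0.76, adjusted p = 0.000325 for ZXDB. With no counts of ZXDB in Daudi knockout, its 9.91 depends on the prior count and is not a bound.

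**Figure D2:**
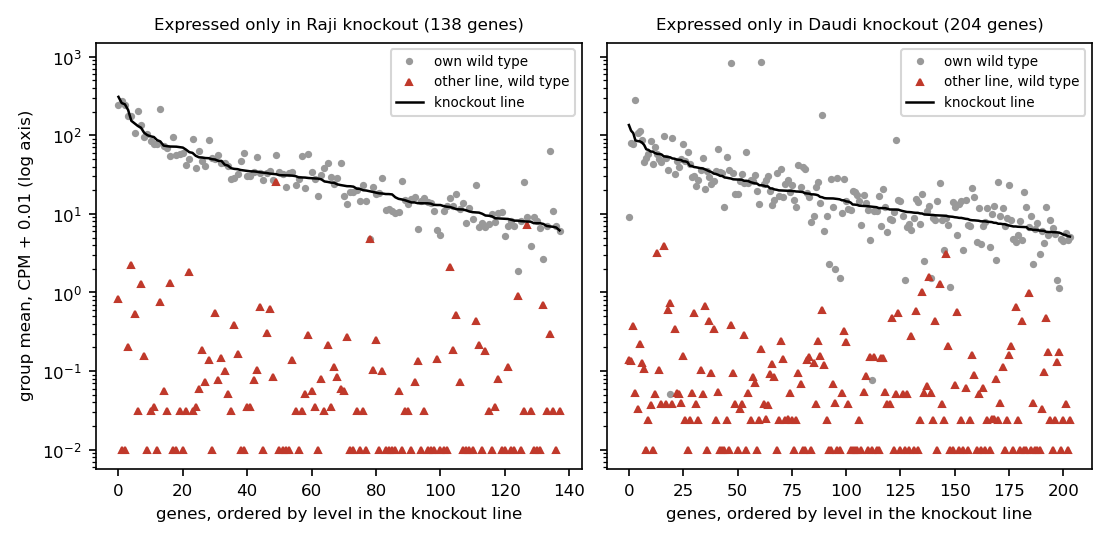
Genes expressed only in Raji knockout (left, 138 genes) or only in Daudi knockout (right, 204 genes), ordered by their level in that line (black line), with the mean in wild-type cells of the same line (grey points) and of the other line (red triangles) on a log axis of CPM + 0.01. Most grey points lie along the black line and most red triangles under 0.5 CPM.

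Among lists of genes by function, the EBV-induced genes, the MHC class II genes and the genes of light zone and activated B cells lay well to the Raji side, and the interferon genes to the Daudi side. Shares are read against the background of 19.7% and 22.5% of all genes. No set test was made. The myeloid list summed to 1.83 to 5.34 CPM in Raji and to 151 and 168 CPM in Daudi knockout, where CSTA, a protease inhibitor of skin and myeloid cells, made up most of it at 0, 0.0677, 0.123 and 0.0534 CPM in Raji knockout and 131 and 139 CPM in Daudi knockout. Of its 8 tested members, 5 were higher in Daudi knockout and 0 in Raji knockout. CSF1R, the receptor of a macrophage growth factor, was at 0.0892, 0.135, 0.307 and 0.0534 CPM in Raji knockout and 6.39 and 12.7 CPM in Daudi knockout (log2 difference -6.02, SE 0.46, adjusted p = 1.42e-06). LYZ, lysozyme, was at 0, 0.0677, 0 and 0.160 CPM in Raji knockout and 5.01 and 4.20 CPM in Daudi knockout (log2 difference -6.21, SE 0.81, adjusted p = 9.6e-05), and CD33, a myeloid lectin, at 0.446, 0.135, 2.03 and 1.01 CPM in Raji knockout and 3.08 and 5.74 CPM in Daudi knockout (log2 difference -2.28, SE 0.68, adjusted p = 0.0181). MPO, S100A8, S100A9 and CEBPA, also defining myeloid genes, were near 0 in every knockout library. In wild-type Daudi, CSTA was lower than in Daudi knockout, at 7.47 and 10.5 CPM, and CSF1R was higher, at 25.6 and 23.6 CPM. The difference of differences was called for 0 members of the myeloid list. The part of the myeloid genes in other differences was not tested. Of 16 T and NK cell markers, only LCK, a kinase also made by B cell lymphomas, was over 5 CPM, and of 12 epithelial and fibroblast markers only COL1A1, in Raji (5.07 to 19.9 CPM against 0.0789 and 0.354 CPM in Daudi). In bulk RNA, fewer cells that make a transcript and less of it in each cell cannot be told apart.

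**Figure D3:**
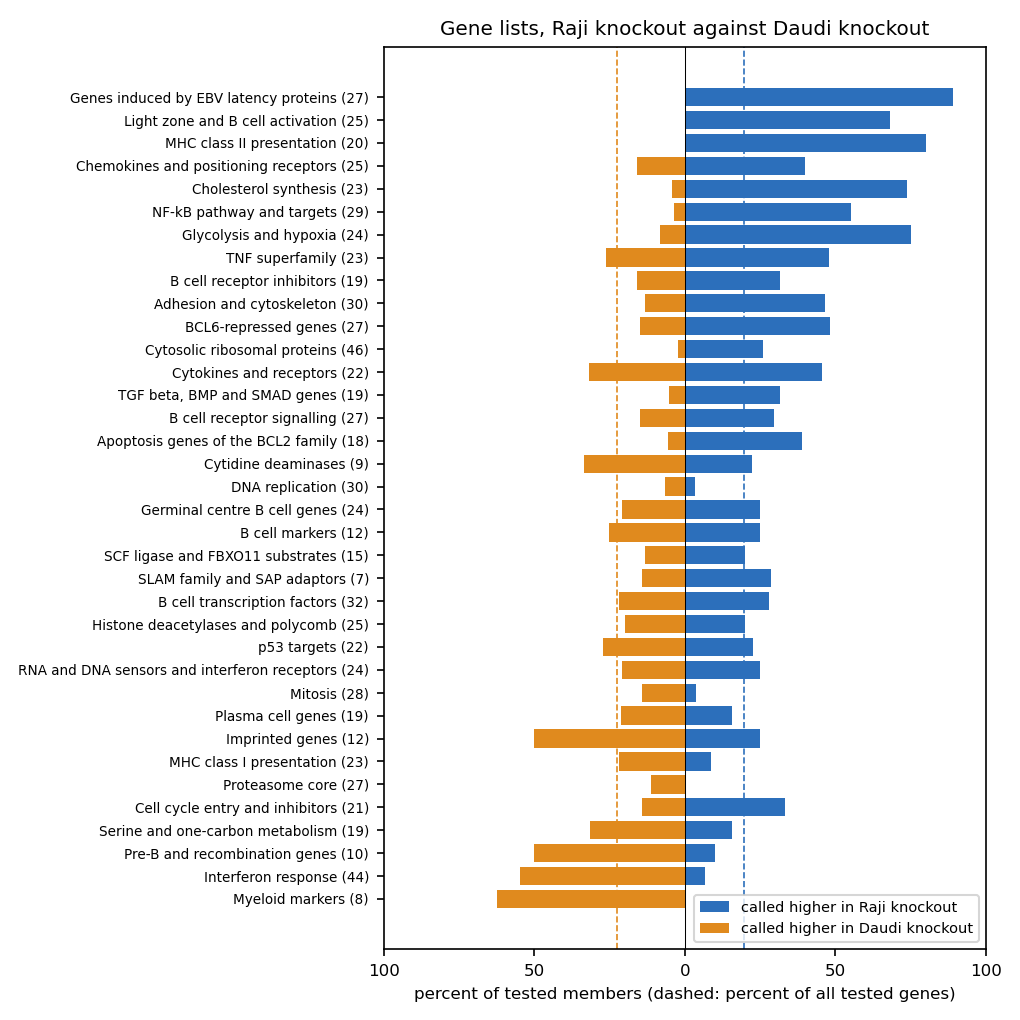
Share of tested members called higher in Raji knockout (blue, to the right) or in Daudi knockout (orange, to the left) for each list with 7 or more tested members, ordered by median log2 difference. Dashed lines mark the shares over all tested genes, 19.7% and 22.5%, and the number of tested members stands in brackets.

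Of 27 genes known to be induced by EBV latency proteins, 24 were higher in Raji knockout, 0 in Daudi knockout, and 3 were not called. Their median log2 difference was 2.01, against -0.04 over all genes, and 2.07 in wild type. Viral transcripts were not analysed here. CCR7, the chemokine receptor that leads B cells to the T cell zone, was at 159, 140.0, 203 and 109 CPM in Raji knockout and 0.434 and 0.0786 CPM in Daudi knockout (log2 difference 9.19, SE 0.81, adjusted p = 4.31e-06). VIM, the intermediate filament vimentin, was at 82.9, 100.2, 90.4 and 60.7 CPM in Raji knockout and 0.355 and 0.157 CPM in Daudi knockout (log2 difference 8.31, SE 0.44, adjusted p = 8.8e-08). Both are at 0.5 CPM or less in the 2 Daudi libraries and above 60 CPM in each Raji library. HES1, a Notch target, was at 108, 81.7, 51.1 and 31.1 CPM in Raji knockout and 0.552 and 0.157 CPM in Daudi knockout (log2 difference 7.56, SE 0.86, adjusted p = 3.2e-05), and ACKR3, a scavenger receptor for CXCL12, held 2584 counts in Raji against 2 in Daudi. RUNX3, a transcription factor switched on by EBNA2, was at 299.8, 289, 265 and 216 CPM in Raji knockout and 34.9 and 24.8 CPM in Daudi knockout (log2 difference 3.16, SE 0.22, adjusted p = 6.57e-07). SLAMF1, a B cell adhesion receptor, was at 32.9, 32.6, 47.02 and 27.5 CPM in Raji knockout and 0.591 and 0.786 CPM in Daudi knockout (log2 difference 5.65, SE 0.37, adjusted p = 3.88e-07). The Raji libraries lay above the Daudi libraries for each of these called genes. Over all tested genes, 59.2% had no overlap in either direction. The count of 24 was 16 to 24 over all settings, and none was called higher in Daudi in any.

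The light zone and activation list gave 17 higher in Raji, 0 in Daudi and 8 not called (median 1.89), and 12 of the 17 called genes are also on the EBV list. Without Daudi knockout replicate 1 the count fell to 9. IL21R, the receptor of a T cell cytokine, was at 114, 90.5, 117 and 101 CPM in Raji knockout and 24.1 and 19.1 CPM in Daudi knockout (log2 difference 2.30, SE 0.17, adjusted p = 1.23e-06). BATF, a partner of IRF4, held 655 counts in Raji and 2 in Daudi. CD86 and EGR3, further activation genes, were not called (log2 differences -0.42 and -1.06).

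In the NF-kB list, 16 of 29 genes were higher in Raji knockout, 1 in Daudi knockout and 12 were not called (median 1.14, wild type 0.725). The count was 10 without Daudi knockout replicate 1. The called genes included inhibitors of the pathway as well as targets. TNIP1, which restrains NF-kB with A20, was at 366, 394, 358 and 289 CPM in Raji knockout and 92.5 and 84.2 CPM in Daudi knockout (log2 difference 1.99, SE 0.20, adjusted p = 1.12e-05). TRAF3, which holds the non-canonical arm off, was at 120.2, 111, 110.3 and 111 CPM in Raji knockout and 35.3 and 51.8 CPM in Daudi knockout (log2 difference 1.38, SE 0.17, adjusted p = 5.13e-05), and NFKB2, the precursor of that arm, was at 204, 182, 178 and 157 CPM in Raji knockout and 46.1 and 51.8 CPM in Daudi knockout (log2 difference 1.88, SE 0.25, adjusted p = 0.00012). LTA, the cytokine lymphotoxin alpha and a target, was at 44.5, 38.6, 39.04 and 29.2 CPM in Raji knockout and 3.79 and 3.46 CPM in Daudi knockout (log2 difference 3.38, SE 0.35, adjusted p = 1.37e-05). Of the DNA-binding subunits, REL was the 1 gene higher in Daudi knockout (log2 difference -0.56, SE 0.15, adjusted p = 0.0102), while RELA (log2 difference 0.22) and NFKB1 (-0.34) were not called.

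MHC class II presentation, by which B cells show peptides to helper T cells, stood higher in Raji knockout in 16 of 20 genes, with 0 higher in Daudi and 4 not called (median 1.77, wild type 0.971). CIITA, the master activator of class II transcription, was at 507, 464, 515 and 478 CPM in Raji knockout and 71.4 and 41.8 CPM in Daudi knockout (log2 difference 3.12, SE 0.27, adjusted p = 4.15e-06). HLA-DRA, the alpha chain of HLA-DR, was at 2593, 2278, 3066 and 2503 CPM in Raji knockout and 848 and 716 CPM in Daudi knockout (log2 difference 1.74, SE 0.17, adjusted p = 8.11e-06). CD74, the chaperone of class II, was at 4572, 5508, 5851 and 5235 CPM in Raji knockout and 2103 and 2643 CPM in Daudi knockout (log2 difference 1.16, SE 0.17, adjusted p = 0.000179). HLA-DMA, which loads peptides, was at 243, 234, 264 and 289 CPM in Raji knockout and 72.8 and 57.99 CPM in Daudi knockout (log2 difference 1.98, SE 0.17, adjusted p = 3.69e-06). No Daudi library reached a Raji library for any of the 4, all of them called genes. The libraries did not overlap, in either direction, for 59.2% of all tested genes. HLA-DRB5 and HLA-DQB2 had large differences (3.42 and 10.92), but the HLA genes are near-identical copies that differ between people, so reads may be split or lost between them. Of the 4 genes not called, RFXANK and RFXAP are subunits of the RFX complex that binds class II promoters (log2 differences -0.08 and -0.42).

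MHC class I presentation gave 2 of 23 genes higher in Raji knockout and 5 in Daudi knockout (median -0.215), the latter 3 without Daudi knockout replicate 2. B2M was at 1167, 1032, 746 and 721 CPM in Raji knockout and 252 and 287 CPM in Daudi knockout (log2 difference 1.77, SE 0.30, adjusted p = 0.000669). HLA-C was higher in Daudi knockout, at 242, 193, 235 and 247 CPM in Raji knockout and 463 and 541 CPM in Daudi knockout (log2 difference -1.13, SE 0.25, adjusted p = 0.0034), and HLA-F in Raji knockout (log2 difference 2.06, SE 0.49, adjusted p = 0.00497). HLA-B, an abundant heavy chain, was not called (log2 difference -0.29). The RNA of B2M was therefore present in every Daudi library, and its protein was not measured here.

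Interferon response genes were more often higher in Daudi knockout: 24 of 44 members, with 3 higher in Raji and 17 not called, at a median log2 difference of -1.90. Without Daudi knockout replicate 1, 14 were called higher in Daudi. SAMD9L, an antiviral factor, was at 0, 0, 0.184 and 0.374 CPM in Raji knockout and 43.1 and 13.2 CPM in Daudi knockout (log2 difference -7.60, SE 0.78, adjusted p = 1.4e-05). IFI44L was at 0, 0, 0 and 0.160 CPM in Raji knockout and 40.2 and 6.01 CPM in Daudi knockout (log2 difference -8.91, SE 0.93, adjusted p = 1.64e-05). The pair of Daudi libraries differed between themselves here, replicate 1 being the higher for both genes. OAS2, which senses double-stranded RNA, was at 41.7, 41.1, 59.3 and 60.4 CPM in Raji knockout and 171 and 124 CPM in Daudi knockout (log2 difference -1.54, SE 0.28, adjusted p = 0.00101). The exceptions higher in Raji were IRF7, which amplifies the response, at 7.85, 8.12, 5.03 and 6.36 CPM in Raji knockout and 0 CPM in both Daudi knockout libraries (log2 difference 10.04, SE 0.79, adjusted p = 3.24e-06), PARP9, a member of the PARP family, at 15.3, 18.3, 25.4 and 14.4 CPM in Raji knockout and 0.986 and 0 CPM in Daudi knockout (log2 difference 5.20, SE 0.75, adjusted p = 0.000191), and IFIH1, the RNA sensor MDA5, at 53.6, 47.98, 47.4 and 36.2 CPM in Raji knockout and 6.94 and 5.34 CPM in Daudi knockout (log2 difference 2.91, SE 0.44, adjusted p = 0.000264).

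The same list differed far more between the wild-type lines, with 41 of 44 genes higher in Daudi, 3 in Raji and a median of -5.88. The difference of differences was called for 9 of the 44 members, against 93 of all 12027 tested genes (0.773%). Among the 9 were OAS1, OAS2, ISG15, IFIT2, IFI6, IRF9, DDX58 and IFIH1, each with a smaller lead of Daudi in knockout or, for IFIH1, a lead of Raji. The count of 93 depended strongly on the fit (values below), and the 9 were not counted again in the other settings. ISG15, a ubiquitin-like modifier, was at 8.96, 6.56, 16.1 and 16.6 CPM in Raji knockout and 27.9 and 10.1 CPM in Daudi knockout, which did not pass the test (log2 difference -0.65, SE 0.47, adjusted p = 0.291). In wild-type Daudi it stood at 1252 and 536 CPM, against 11.1 to 20.6 CPM in wild-type Raji. Its difference of differences was 5.03, SE 0.72, adjusted p = 0.00923. The wild-type Daudi libraries differed between themselves, with 204 and 56.7 CPM of IFIH1. Of the receptors, IFNGR1, IFNGR2 and IFNAR2 were higher in Raji knockout (log2 differences 1.04, 1.32 and 0.92), and the sensor TLR7 was higher in Daudi knockout (-2.65). IFNAR2 overlaps a gene of the other strand over 39.1% of its exonic bases. The IFNGR2 and IFNAR2 calls were lost without Daudi knockout replicate 2.

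The germinal centre list had calls both ways, in shares near the 19.7% and 22.5% of all tested genes. Of its 24 genes, 6 were higher in Raji knockout, 5 in Daudi knockout and 13 not called (median 0.125). BACH2, a repressor that holds B cells back from becoming plasma cells, was at 7.36, 6.02, 3.56 and 3.95 CPM in Raji knockout and 577 and 531 CPM in Daudi knockout (log2 difference -6.72, SE 0.27, adjusted p = 1.52e-08). NEIL1, a DNA glycosylase, was at 0.134, 0.271, 0.0614 and 0.374 CPM in Raji knockout and 92.1 and 75.3 CPM in Daudi knockout (log2 difference -8.61, SE 0.67, adjusted p = 1.66e-06). On the Raji side, S1PR2, the receptor that confines B cells to the germinal centre, was at 273, 282, 218 and 164 CPM in Raji knockout and 78.2 and 67.6 CPM in Daudi knockout (log2 difference 1.68, SE 0.22, adjusted p = 8.83e-05), and A4GALT, which makes the CD77 glycolipid, at 67.1, 55.01, 58.6 and 64.5 CPM in Raji knockout and 16.2 and 10.96 CPM in Daudi knockout (log2 difference 2.17, SE 0.26, adjusted p = 4.49e-05). MME, known as CD10, and GCSAM were not called (log2 differences -0.48 and 0.06). Of the exonic bases of NEIL1, 30.5% overlap genes of the other strand, so its level is uncertain. BACH2 kept the same gap in wild type (-6.80), and its difference of differences was 0.08 (adjusted p = 0.983).

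In B cell receptor signalling, 8 of 27 genes were higher in Raji knockout and 4 in Daudi knockout (median 0.226), and without Daudi knockout replicate 2 the counts were 5 and 2. Over all tested genes the shares were 19.7% and 22.5%. PIK3CD, the PI3-kinase delta subunit, was at 500.2, 489, 534 and 507 CPM in Raji knockout and 87.4 and 82.9 CPM in Daudi knockout (log2 difference 2.58, SE 0.16, adjusted p = 2.15e-07), and VAV2, an exchange factor, at 52.2, 47.4, 52.5 and 50.9 CPM in Raji knockout and 1.89 and 2.75 CPM in Daudi knockout (log2 difference 4.45, SE 0.30, adjusted p = 5.32e-07). Among the inhibitory receptors and phosphatases, FCRL3, an Fc receptor-like protein, was at 164, 135, 226 and 333 CPM in Raji knockout and 10.4 and 15.5 CPM in Daudi knockout (log2 difference 4.05, SE 0.44, adjusted p = 2.26e-05). Of the 19 inhibitory genes, 6 were higher in Raji knockout (2 without Daudi knockout replicate 2) and 3 in Daudi knockout. FCRLA, SIGLEC10 and PTPN22 were higher in Daudi knockout (log2 differences -1.42, -2.64 and -0.91). Of the 12 B cell markers, EBF1, a B cell lineage factor, was higher in Raji knockout (log2 difference 1.23, SE 0.20, adjusted p = 0.000457) and TCL1A, an AKT co-activator, in Daudi knockout (log2 difference -1.23, SE 0.20, adjusted p = 0.000401), with 3 markers called each way (1 each way without Daudi knockout replicate 2).

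Plasma cell genes gave 3 of 19 higher in Raji knockout and 4 in Daudi knockout, or 2 and 2 without Daudi knockout replicate 2. Neither share exceeded that of all tested genes (19.7% and 22.5%). TNFRSF17, the plasma cell receptor BCMA, was at 0.401, 0.541, 1.10 and 0.534 CPM in Raji knockout and 13.96 and 19.9 CPM in Daudi knockout (log2 difference -4.72, SE 0.37, adjusted p = 1.84e-06), and XBP1, the driver of the secretory programme, at 42.05, 20.6, 58.4 and 132 CPM in Raji knockout and 318 and 312 CPM in Daudi knockout (log2 difference -2.31, SE 0.49, adjusted p = 0.00256). Raji replicate 4, at 132 CPM of XBP1, was well above the next Raji library. CD27, whose exonic bases overlap the antisense gene CD27-AS1 by 37.0%, was higher in Raji knockout (log2 difference 0.93, SE 0.20, adjusted p = 0.00299). TNF family members ranged from TNFSF8, the CD30 ligand, with 1 count in Raji knockout against 3305 in Daudi, to FAS, a death receptor, at 72.3, 59.5, 36.8 and 33.9 CPM in Raji knockout and 1.22 and 1.296 CPM in Daudi knockout (log2 difference 5.32, SE 0.76, adjusted p = 0.000191). In all, 11 of 23 TNF family genes were higher in Raji knockout and 6 in Daudi knockout (median 0.928).

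BCL6 RNA levels overlapped between the knockout groups, and BCL6 protein was not measured here. Of 27 genes known as repressed by BCL6, 13 were higher in Raji knockout and 4 in Daudi knockout (median 0.555, wild type 0.304). The count of 13 fell to 6 without Daudi knockout replicate 1 and to 7 without replicate 2. CDKN1B, the cell cycle inhibitor p27, was at 56.1, 67.3, 45.4 and 19.7 CPM in Raji knockout and 0.118 and 0.157 CPM in Daudi knockout (log2 difference 8.35, SE 0.67, adjusted p = 2.05e-06). BCL2, the inhibitor of apoptosis, was at 86.5, 74.8, 31.5 and 9.62 CPM in Raji knockout and 0.513 and 1.14 CPM in Daudi knockout (log2 difference 5.93, SE 1.01, adjusted p = 0.000613), with Raji replicate 4 far under replicate 1. ZEB2, a transcription factor of memory-like B cells, was at 41.2, 31.8, 22.5 and 17.3 CPM in Raji knockout and 1.10 and 1.45 CPM in Daudi knockout (log2 difference 4.46, SE 0.50, adjusted p = 3.22e-05). PRDM1, the plasma cell factor BLIMP1 and a known BCL6 target, was at 0 to 4.22 CPM in Raji and at 1.45 and 1.77 CPM in Daudi knockout and was not called (-0.32). For CDKN1B the difference in wild type was 8.30.

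Of 21 genes of cell cycle entry, 7 were higher in Raji knockout and 3 in Daudi knockout (median -0.247). The 7 fell to 3 without Daudi knockout replicate 1 and to 4 without Daudi knockout replicate 2, Raji knockout replicate 1 or Raji knockout replicate 2. TFDP1, the E2F partner, was at 224, 256, 290.1 and 288 CPM in Raji knockout and 918 and 747 CPM in Daudi knockout (log2 difference -1.65, SE 0.23, adjusted p = 0.000159), and CDKN2C, the inhibitor p18, at 28.9, 46.6, 60.8 and 40.2 CPM in Raji knockout and 105 and 103 CPM in Daudi knockout (log2 difference -1.24, SE 0.22, adjusted p = 0.000796). CDK6, a G1 kinase on chromosome 7, was higher in Raji knockout, at 249, 279, 169 and 122 CPM in Raji knockout and 51.7 and 49.9 CPM in Daudi knockout (log2 difference 2.01, SE 0.31, adjusted p = 0.000314). Of 18 apoptosis genes of the BCL2 family, 7 were higher in Raji knockout and 1 in Daudi knockout (median 0.179), the former 4 without Daudi knockout replicate 1 and 3 without replicate 2. BCL2L11, the death inducer BIM, was at 297, 350.0, 298 and 309 CPM in Raji knockout and 77.95 and 104 CPM in Daudi knockout (log2 difference 1.79, SE 0.20, adjusted p = 3.37e-05), and BCL2A1, a survival gene, at 9.36, 4.87, 13.7 and 8.01 CPM in Raji knockout and 0.591 and 0.511 CPM in Daudi knockout (log2 difference 4.01, SE 0.63, adjusted p = 0.000356). Against shares of 19.7% and 22.5% over all tested genes, 5 of 22 p53 targets were higher in Raji and 6 in Daudi knockout. The latter were 2 without Daudi knockout replicate 1, and without replicate 2 each count was 3. MDM2, which degrades p53, was at 87.03, 98.3, 88.1 and 108 CPM in Raji knockout and 327 and 277 CPM in Daudi knockout (log2 difference -1.66, SE 0.14, adjusted p = 3.16e-06), and EDA2R, a death receptor family member, had no counts in Raji and was at least 721-fold higher in Daudi knockout.

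Most genes of DNA replication and mitosis did not pass the test: 27 of 30 and 23 of 28, with medians of 0.127 and -0.091. RFC2, a clamp loader subunit on chromosome 7, was the replication gene with the largest difference (log2 difference -1.37, SE 0.32, adjusted p = 0.00441). CCNB1, cyclin B1, was higher in Daudi knockout (log2 difference -1.27, SE 0.35, adjusted p = 0.0114) and NUSAP1, a spindle protein, in Raji knockout (log2 difference 1.21, SE 0.31, adjusted p = 0.00848). Each of these mitotic calls was lost without 1 of the Daudi knockout libraries, replicate 1 for CCNB1 and replicate 2 for NUSAP1. Over all settings, 0 to 5 mitotic genes were called toward Raji and 0 to 7 toward Daudi. The proteasome core gave 0 of 27 genes higher in Raji, 3 in Daudi and 24 not called (median -0.245), and no member was called when either Daudi knockout library was left out. Of 46 cytosolic ribosomal protein genes, 12 were higher in Raji knockout, 1 in Daudi knockout and 33 not called (median 0.282). The 12 fell to 5 when either Daudi knockout library was left out and to 7 with upper quartile scaling. RPL22 was at 1871, 1686, 2067 and 1636 CPM in Raji knockout and 776 and 813 CPM in Daudi knockout (log2 difference 1.19, SE 0.18, adjusted p = 0.000297) and RPL6 at 2847, 2664, 3305 and 2528 CPM in Raji knockout and 1491 and 1419.6 CPM in Daudi knockout (log2 difference 0.96, SE 0.18, adjusted p = 0.00103).

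Of 23 genes of cholesterol synthesis, 17 were higher in Raji knockout and 1, CYP51A1, in Daudi knockout (median 1.21, wild type 1.3). SQLE, squalene epoxidase, was at 179, 205, 214 and 185 CPM in Raji knockout and 42.1 and 48.1 CPM in Daudi knockout (log2 difference 2.12, SE 0.17, adjusted p = 1.96e-06), and LSS, lanosterol synthase, at 268, 224, 259 and 225 CPM in Raji knockout and 29.1 and 45.4 CPM in Daudi knockout (log2 difference 2.71, SE 0.27, adjusted p = 1.26e-05). SREBF2, the transcription factor of the pathway, was not called (0.56). Of 24 genes of glycolysis and hypoxia, 18 were higher in Raji knockout and 2 in Daudi knockout (median 1.10, wild type 1.39). The isoforms diverged: HK1, the ubiquitous hexokinase, was at 130.2, 116, 125 and 114 CPM in Raji knockout and 5.80 and 6.91 CPM in Daudi knockout (log2 difference 4.25, SE 0.41, adjusted p = 8.46e-06), while HK2 was not called (0.33). ENO1, the common enolase, was higher in Raji knockout (1.61), and ENO2, the neuronal enolase, was at 2.72, 1.89, 1.35 and 1.07 CPM in Raji knockout and 108 and 92.9 CPM in Daudi knockout (log2 difference -5.82, SE 0.53, adjusted p = 5.56e-06). PFKP, a phosphofructokinase, was at 100.4, 99.3, 93.4 and 109 CPM in Raji knockout and 5.76 and 4.13 CPM in Daudi knockout (log2 difference 4.34, SE 0.19, adjusted p = 2.79e-08).

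Serine and one-carbon metabolism held opposite differences at successive steps. PHGDH was near 0 in Daudi knockout (values above), and CBS, which makes cystathionine from serine, held 7274 counts in Raji knockout against 3 in Daudi knockout. CTH, which cleaves cystathionine, was at 5.04, 3.18, 4.85 and 3.04 CPM in Raji knockout and 32.3 and 24.1 CPM in Daudi knockout (log2 difference -2.80, SE 0.36, adjusted p = 8.31e-05), and SHMT2, which takes 1-carbon units from serine, at 285, 214, 291 and 253 CPM in Raji knockout and 546 and 543 CPM in Daudi knockout (log2 difference -1.06, SE 0.18, adjusted p = 0.000668). In all, 3 of 19 genes of the list were higher in Raji and 6 in Daudi knockout.

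Imprinted genes, which are read from 1 parental allele, gave several all-or-none differences. Of 12 imprinted genes tested, 6 were higher in Daudi knockout and 3 in Raji knockout. SNRPN, a splicing factor expressed from the paternal allele, was at 57.1, 53.7, 83.8 and 92.8 CPM in Raji knockout and 0.197 and 0 CPM in Daudi knockout (log2 difference 9.42, SE 0.61, adjusted p = 7.96e-07), and MEST, likewise paternal, had 2 counts in Raji knockout and 22.8 and 27.8 CPM in Daudi knockout. L3MBTL1 was at 0.134, 0, 0.0614 and 0.0534 CPM in Raji knockout and 14.9 and 24.3 CPM in Daudi knockout (log2 difference -8.04, SE 0.56, adjusted p = 6.05e-07). TET2, an enzyme that oxidises methylcytosine, was at 15.3, 15.2, 6.69 and 5.66 CPM in Raji knockout and 0 CPM in both Daudi knockout libraries, at least 161-fold higher in Raji knockout (log2 difference 10.69, SE 1.11, adjusted p = 4.89e-05). PRAME, a cancer-testis antigen, was at 0.268, 0.0677, 0.123 and 0.107 CPM in Raji knockout and 16.1 and 15.6 CPM in Daudi knockout (log2 difference -6.67, SE 0.60, adjusted p = 5.15e-06), and only 2 of the 38 genes on that list passed the filter on low counts. APOBEC3B and APOBEC3C, deaminases of a family of related copies, were called in opposite directions (3.05 and -1.96). APOBEC3B differed within Raji knockout, at 68.9 and 53.2 CPM in replicates 3 and 4 and 8.56 and 11.2 CPM in replicates 1 and 2, and its call was lost without replicates 3 and 4 and when either Daudi knockout library was left out.

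The wild-type lines differed in 5428 genes (45.1%; 20.3% higher in Raji and 24.8% in Daudi), and this contrast shares no library with that of the knockout lines. Of the genes called in knockout, 3778 were called the same way in wild type, which is 74.4% of the knockout calls and 69.6% of the wild-type calls, and 23 were called the opposite way. Of the 1275 called in knockout only, 15 had a called difference of differences. A call in one background alone is no test of a change, so the difference itself was tested. It passed for 93 genes (0.773%), 57 (0.474%) with values further toward Raji in knockout and 36 (0.299%) further toward Daudi. This count depended on the fit, from 6 without Daudi knockout replicate 2 to 502 with DESeq2.

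Genes further toward Raji in knockout included LUZP1, an actin and cilium protein, at 48.1, 51.1, 66.7 and 77.99 CPM in Raji knockout and 0.0789 and 0.118 CPM in Daudi knockout, against 2.16 and 1.43 CPM in wild-type Daudi (difference of differences 4.39, SE 0.47, adjusted p = 0.00229). YBX3, a cold shock RNA-binding protein, was at 452, 386, 429 and 409 CPM in Raji knockout and 22.1 and 20.4 CPM in Daudi knockout, against 61.8 and 74.7 CPM in wild-type Daudi (1.75, SE 0.21, adjusted p = 0.00378). CPEB4, which controls poly(A) tails, was at 40.4, 52.4, 41.2 and 54.5 CPM in Raji knockout and 7.10 and 6.68 CPM in Daudi knockout, and its difference of differences was 2.19, SE 0.28, adjusted p = 0.00559. For LUZP1, YBX3 and CPEB4 both Daudi knockout libraries lay below both wild-type Daudi libraries. WASF3, an actin regulator, was at 58.6, 24.8, 35.6 and 53.8 CPM in Raji knockout and 32.5 and 22.1 CPM in Daudi knockout, and in wild type at 0.610 to 0.955 CPM in Raji against 6.47 and 7.61 CPM in Daudi (3.79, SE 0.48, adjusted p = 0.00559). Of the exonic bases of WASF3, 38.3% overlap a gene of the other strand. SMAD1, which carries BMP signals to the nucleus, was at 24.9, 3.92, 13.5 and 30.1 CPM in Raji knockout and 4.65 and 5.30 CPM in Daudi knockout, and at no more than 0.119 CPM in wild-type Raji (8.92, SE 1.15, adjusted p = 0.00559). For FCRL3 the difference in wild type did not pass the test (log2 difference 0.08, adjusted p = 0.880), and the difference of differences was 3.97, SE 0.52, adjusted p = 0.00559. The difference of IFIH1 changed sign, from -1.63 in wild type to 2.91 in knockout (4.54, SE 0.56, adjusted p = 0.00545).

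Genes further toward Daudi in knockout included NAXD, a repair enzyme of damaged NADH, at 21.4, 21.2, 18.2 and 18.7 CPM in Raji knockout and 7.49 and 9.94 CPM in Daudi knockout, against 0.332 and 0.296 CPM in wild-type Daudi (-4.68, SE 0.31, adjusted p = 4.77e-05). BICC1, an RNA-binding protein, was at 8.61, 7.04, 10.9 and 17.2 CPM in Raji knockout and 8.24 and 4.05 CPM in Daudi knockout, with no counts in wild-type Daudi, so that the fitted -10.16, SE 1.06, adjusted p = 0.00314 is not a bound. IMPA2, an inositol monophosphatase (-2.30, SE 0.30, adjusted p = 0.00559), and ACY1, an aminoacylase (-3.42, SE 0.45, adjusted p = 0.00559), likewise had both Daudi knockout libraries above both wild-type Daudi libraries. USP38, a ubiquitin protease, was at 21.6, 19.01, 18.8 and 18.5 CPM in Raji knockout and 24.01 and 20.1 CPM in Daudi knockout, and the knockout lines overlapped, while wild-type Daudi was at 5.93 and 7.31 CPM (-1.63, SE 0.23, adjusted p = 0.00794). SH2D1A was at 0 CPM in all 4 Raji knockout libraries and 42.7 and 62.1 CPM in Daudi knockout, with 2.15, 0.550, 0.109 and 0.111 CPM in wild-type Raji and 0.0830 and 0 CPM in wild-type Daudi. Its fitted difference of differences was -16.82, SE 2.24, adjusted p = 0.0169, which with no counts in Raji knockout is not a bound. ZMAT1 was at 0.0446, 0.135, 0.0614 and 0 CPM in Raji knockout and 50.8 and 65.3 CPM in Daudi knockout, and fell short of 6 CPM in each wild-type Raji library (-5.70, SE 0.80, adjusted p = 0.00822). Of the 12 genes taken by the naming rule, LUZP1 and NAXD kept the call in all settings, BICC1 lost it in limma-voom, and the other 9 lost it without Daudi knockout replicate 2.

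**Figure D4:**
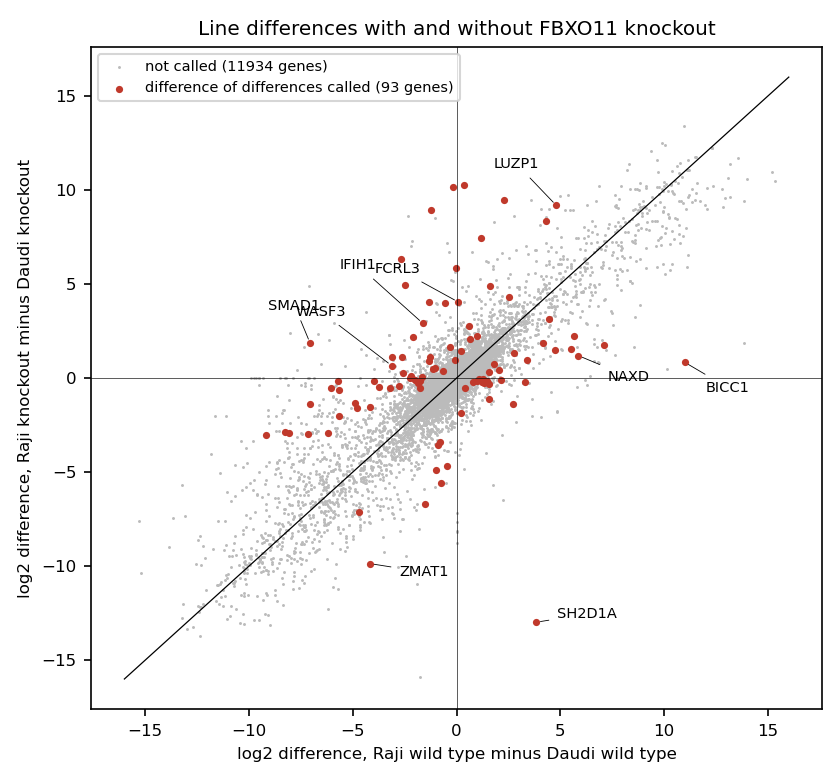
Log2 difference between the lines in wild type (horizontal) and in knockout (vertical) for 12027 genes, with the line of equal values. Red points mark the 93 genes whose differences were not the same, such as LUZP1 and IFIH1 above the line and NAXD, ZMAT1 and SH2D1A below it.

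By chromosome, the knockout difference was furthest from 0 on chromosome 7, where the median over 560 genes was -0.409, against -0.007 in wild type. There, 48 genes were higher in Raji and 193 (34.5%) in Daudi knockout. Set against the wild-type mean of their own line, chromosome 7 genes had medians of -0.41 and -0.47 in Raji knockout replicates 3 and 4, 0.03 and -0.02 in replicates 1 and 2, and 0.18 and 0.28 in the Daudi knockout libraries. In Daudi knockout the medians were 0.37 and 0.35 on chromosome 2, 0.37 and 0.40 on chromosome 21, -0.25 and -0.20 on chromosome 5, and -0.17 and -0.53 on X. Raji replicates 1 and 2 stood at 0.23 and 0.17 on chromosome 11. The wild-type libraries kept within -0.09 to 0.09 on every chromosome. They are part of the mean they were set against, which draws them toward 0, while the knockout libraries are not.

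Such shifts were therefore found in knockout libraries of both lines, and on chromosome 7 in only 2 of the 4 Raji libraries. The 7 chromosomes with a median of 0.2 or more in either direction were 2, 5, 7, 11, 21, 22 and X. Without them 3729 of 8706 genes (42.8%) were called, close to the share over all genes. Of these, 1816 were higher in Raji knockout and 1913 in Daudi knockout. The directions were less even on the 7 chromosomes, with 548 of 3321 tested genes higher in Raji knockout and 799 in Daudi knockout. The part of the shifts in the larger number of Daudi calls was not tested. Named genes on these chromosomes include FBXO11, IFIH1, COL4A4 and ACKR3 on chromosome 2 and IFNGR2, IFNAR2, LSS and CBS on chromosome 21. RFC2, CDK6, CUL1, SAMD9L, MEST and SCRN1 lie on chromosome 7, and SH2D1A, ZMAT1, EDA2R, SLC7A3 and CTPS2 on X. FAM111B, IRF7 and PGGHG lie on chromosome 11, CSF1R and CSNK1G3 on chromosome 5, and PRAME on chromosome 22. For all named genes on these chromosomes, the part of the shifts in their differences was not tested. Among 138 fixed windows of 20 Mb with 30 or more tested genes, the lowest median was at the end of chromosome 13 (100 to 120 Mb, 33 genes), at -1.28 in knockout and -0.81 in wild type. It holds LIG4, the ligase of end joining, at 26.4, 36.2, 26.3 and 26.7 CPM in Raji knockout and 105 and 111 CPM in Daudi knockout (log2 difference -1.90, SE 0.24, adjusted p = 6.79e-05). The highest of these windows was at 80 to 100 Mb of chromosome 8 (47 genes), at 1.05 in knockout and 0.86 in wild type.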

How the data were processed

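RNA-seq counts per gene were deposited by the authors as whole numbers for 12 libraries, with no value normalized. Libraries were made from DNase-treated total RNA (TRIzol) with a kit that does not mark strand, per the labels' protocols. Tools listed in the submitters' processing notes are STAR 2.5.0 and RSEM 1.3.0, with the build hg38, and the step each served is not stated. How reads that match several genes were treated is not stated either.

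Of 19919 genes, 3577 were at 0 in every library. The 12027 genes that passed edgeR's filter on low counts were tested with edgeR 4.0.16 (R 4.3.3, quasi-likelihood test, TMM scaling, robust fit) over the 4 groups of Raji and Daudi, wild type and knockout, with 8 residual degrees of freedom and a common biological coefficient of variation of 26.1%. The contrasts were Raji minus Daudi in knockout, the same in wild type, and the difference of these differences. P-values were adjusted by the Benjamini-Hochberg method over all tested genes, and a call means an adjusted p under 0.05. No 2 libraries of a group agreed within sampling noise. The closest pair, wild-type Raji replicates 3 and 4, differed by 2.18 (chi-square over its degrees of freedom), against 43.1 to 90.1 for the other wild-type Raji pairs. The main fit counted both as separate libraries, and whether they are separate cultures is not stated. With these 2 summed, the difference of differences passed for 29 genes instead of 93. In Raji knockout the closest pairs were replicates 1 with 2 (21.9) and 3 with 4 (49.1). The procedure was tested on simulated data. Gene positions came from GENCODE 29, where 19689 identifiers were found, and promoters from RefSeq.

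The members and the 39 gene lists were chosen with earlier results of these data known. Named genes were FBXO11 and BCL6, the 12 genes each way with the largest fitted fold (at least 20 CPM in the higher group, no overlap), up to 4 called genes per list by smallest p (at least 5 CPM), the 6 genes each way with the smallest p for the difference of differences (at least 10 CPM), the 6 most abundant genes with an interval within -0.5 to 0.5, and the 5 highest genes expressed in 1 line only. Further genes named from a list, with their values, stand outside this rule and were chosen after their values were seen. Alternatives were other scalings, no filter, DESeq2 1.42.0, limma-voom (limma 3.58.1), knockout libraries alone, summed pairs and each library left out in turn. The settings for the wild-type contrast, those for genes expressed in 1 line only and the count without the shifted chromosomes were added after seeing the data. Some genes are not reported here.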

Additional observations from a re-analysis of the deposited data

Results flagged for a closer look

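For 134 named genes, the 4 Raji knockout libraries were tested for 1 library far from the rest. Such a library was found for 3 genes, a smaller share than the about 1 in 20 that chance gives. LIG4, the DNA ligase of end joining, stood at 36.2 CPM in 1 Raji knockout library. TRAF3, an inhibitor of NF-kB, stood at 120 CPM in 1 library, and USP38, a ubiquitin protease, at 21.6 CPM.

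The difference between the lines was not the same in knockout and wild type, by the test of the difference of differences itself, for the genes that follow, each given with its adjusted p from edgeR. Further toward Raji in knockout were LUZP1 (4.39, adjusted p = 0.00229), YBX3 (1.75, adjusted p = 0.00378), IFIH1 (4.54, adjusted p = 0.00545) and SMAD1 (8.92, adjusted p = 0.00559). CPEB4 (2.19), WASF3 (3.79) and FCRL3 (3.97) had the same adjusted p of 0.00559. Further toward Daudi in knockout were NAXD (-4.68, adjusted p = 4.77e-05), BICC1 (-10.16, adjusted p = 0.00314), USP38 (-1.63, adjusted p = 0.00794) and ZMAT1 (-5.70, adjusted p = 0.00822). IMPA2 (-2.30) and ACY1 (-3.42) had an adjusted p of 0.00559, SH2D1A (-16.82) of 0.0169 and BCL6 (-1.42) of 0.0483. The fitted values of BICC1 and SH2D1A rest on a group with no counts and are not bounds. FCRL3, SH2D1A and BCL6 lie outside the 12 genes that the smallest p-values took.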

How the results depend on the processing

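The count of genes that differed between the knockout lines stayed within 1.5 times of 5076 in all 22 other settings, from 3403 without Daudi knockout replicate 2 to 6387 with limma-voom. Of the 148 named knockout differences that were called, 125 were called in every setting, 23 lost the call in at least 1 and 0 reversed. With upper quartile scaling 39.8% of the calls were higher in Raji, against 46.6%. The count of 93 genes with another line difference in knockout than in wild type was 502 with DESeq2, 228 with limma-voom, 43 with the Raji knockout pairs summed and 29 with wild-type Raji replicates 3 and 4 summed, and 6 to 500 with 1 library left out. The lowest was without Daudi knockout replicate 2 and the highest without wild-type Daudi replicate 2, and the cause was not tested. The FBXO11 difference passed the threshold at -0.80 with upper quartile scaling and at -1.14 without Raji knockout replicates 1 and 2, and was -0.33 without replicates 3 and 4, where the cause was not tested. Each fit shared the spread of a gene over all its groups, so Daudi knockout was assumed to vary like the others throughout. Its 2 libraries added only 1 pair to that spread, and without either of them the lone library added nothing to it. No paired analysis was possible because the labels give the groups no shared replicate numbers.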
